A study of Homo sapiens with 16 samples.

Results

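OR51B2 (NCBI gene 79345) and OR51B4 (NCBI gene 79339) are olfactory receptor genes of human chromosome 11, and they are 2 of the 27434 gene rows in the deposited tables. They were selected on measured values, namely RNA present in HCT116 cells, a tissue of origin without olfactory neurons, and lower in SAM68 knockout than in wild-type libraries, and were found in the tables by their NCBI gene numbers. The difference between knockout and wild type and the level in HCT116 therefore chose these genes, and both are given below as description, with no test. RNA-seq had been run on 16 libraries in 8 groups of 2. HCT116, a colorectal carcinoma line, was used as wild type or as SAM68 KO, and each genotype received Control siRNA or an siRNA pool against NORAD. U2OS, an osteosarcoma line with a wild-type background, received Control siRNA or an siRNA pool against SAM68, and in separate transfections either a Control plasmid (pcDNA3.1(+)) or a SAM68 plasmid carrying the mouse gene with an HA tag (pcDNA3-HA-SAM68). The siRNAs were used at 50 nM and the plasmids at 100 ng for each 20000 cells, with harvest at 48 h in every group, and all controls went through the same transfection reagent. The labels do not say whether the knockout line is 1 clone, so a property of a clone and the loss of SAM68 cannot be told apart. They also do not say that the libraries of a group are separate cultures, so every p-value measures the spread between these libraries only, which may be technical.

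Olfactory receptors are G protein-coupled receptors that sense odorants on the cilia of olfactory neurons, where each neuron normally uses a single receptor gene out of a very large family. Bound receptor activates the G protein subunit encoded by GNAL, which stimulates the adenylyl cyclase ADCY3, and cyclic AMP then opens the channel built from CNGA2, CNGA4 and CNGB1. The OR51B genes lie beside the beta-globin genes, inside a long run of receptor genes, and are known for RNA in cell types other than neurons. OR51B4 has been studied as an odorant receptor in HCT116 cells, and OR51B5 in leukaemia cells. SAM68, encoded by KHDRBS1, is an RNA-binding protein of the STAR family that acts in splicing and other steps of RNA processing. NORAD is an abundant long noncoding RNA that binds Pumilio proteins.

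Total expected counts ranged from 11349545 to 27387412 per library. The targeted genes followed their labels: KHDRBS1 was at 206 to 241 CPM (counts divided by the scaled size of the library) in wild-type HCT116 and 31.6 to 44.5 CPM in the knockout. In U2OS it was at 245 and 249 CPM with Control siRNA and 80.7 and 48.6 CPM with the pool against SAM68, a log2 fold change of -1.94 ± 0.25 that did not pass edgeR's quasi-likelihood test (adjusted p = 0.185). With the plasmids it was at 220 and 277 CPM (Control) and 531 and 593 CPM (SAM68), a log2 fold change of 1.18 ± 0.24 (edgeR adjusted p = 1), and reads of the mouse and human genes were not told apart. In wild-type HCT116 cells NORAD averaged 241 CPM with Control siRNA against 48.8 CPM after its own siRNA pool, and in knockout cells 238 against 66.0 CPM. HCT116 carried the epithelial marker EPCAM at 262 to 405 TPM (a level scaled by transcript length and library total), against a mean of 5.82 TPM in U2OS, while the intestinal markers CDX1 and VIL1 were at 0 in every HCT116 library. U2OS carried the mesenchymal and bone markers at a summed 2988 to 4967 TPM, against 7.99 to 13.8 TPM in HCT116. The order of the lines in the sums of both lists followed their labels, but not every member did. LGALS4 and CEACAM5 were low, with a lower mean in HCT116 than in U2OS, and TWIST1 had a higher mean in HCT116. Among the other intestinal markers, CDX2 was detected in every HCT116 library.

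Both receptor genes consist of a single exon on the minus strand in the GENCODE annotation. OR51B2 is spanned by 8 annotated transcripts of other genes and OR51B4 by 6, all on the same strand and none with an exon over the receptor. The receptor genes are thus intronic to longer transcripts assigned to HBE1, HBG2, OR51B5 (for OR51B2 only) and a clone-named gene. A gene count cannot tell reads of the receptors' own transcripts apart from reads of unspliced RNA of those longer transcripts. The expected counts of both receptors were whole numbers, within 0.005, in 16 of 16 libraries.

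OR51B4 was the more abundant of the pair in every library. In wild-type HCT116 it had 317 and 246 expected counts under Control siRNA, or 31.4 and 34.6 TPM, and 360 and 282 counts under NORAD siRNA, or 29.04 and 32.1 TPM. In SAM68 KO cells it had 105 and 96 counts under Control siRNA, or 13.9 and 11.02 TPM, and 117 and 153 counts under NORAD siRNA, at 12.8 TPM in both libraries. Every knockout library was therefore below every wild-type library. In U2OS the gene had 9 and 16 counts with Control siRNA, 3 and 5 with the siRNA pool against SAM68, 12 and 5 with the Control plasmid, and 12 and 12 with the SAM68 plasmid. These counts corresponded to 0.50 to 1.89 TPM, below the lowest HCT116 library.

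Ordered by mean TPM ± SD (n = 2), OR51B4 ran from wild-type HCT116 under Control siRNA (33.0 ± 2.28) and NORAD siRNA (30.6 ± 2.18) to knockout cells under NORAD siRNA (12.8 ± 0.01) and Control siRNA (12.45 ± 2.02). The U2OS groups followed at 1.365 ± 0.29 with the SAM68 plasmid, 1.315 ± 0.35 under Control siRNA, 1.195 ± 0.98 with the Control plasmid and 0.64 ± 0.04 under SAM68 siRNA. Within wild-type HCT116 and within the knockout, neighbours in this order had overlapping libraries. The same was true of neighbours among the U2OS groups.

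OR51B2 was scarcer. Wild-type HCT116 held 94 and 76 counts of it under Control siRNA (8.01 and 9.17 TPM) and 119 and 76 under NORAD siRNA (8.30 and 7.45 TPM). SAM68 KO cells held 8 and 14 counts under Control siRNA (0.91 and 1.38 TPM) and 13 and 24 under NORAD siRNA (1.22 and 1.72 TPM). The lowest wild-type library was thus well above the highest knockout library. Counting error alone was 35.4% at 8 counts and 20.4% at 24 counts, so single knockout libraries fix the level only coarsely. U2OS libraries held 2 and 1 counts with Control siRNA, 2 and 0 with the siRNA pool against SAM68, 3 and 0 with the Control plasmid, and 0 and 1 with the SAM68 plasmid, 9 counts in all. In the 3 U2OS libraries without a read, a count of 0 allows up to 0.138, 0.150 or 0.222 CPM, limits that cover counting error only. OR51B2 thus stayed near or below what these libraries could detect in U2OS, and no fold is given for it between the lines.

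**Figure D1:**
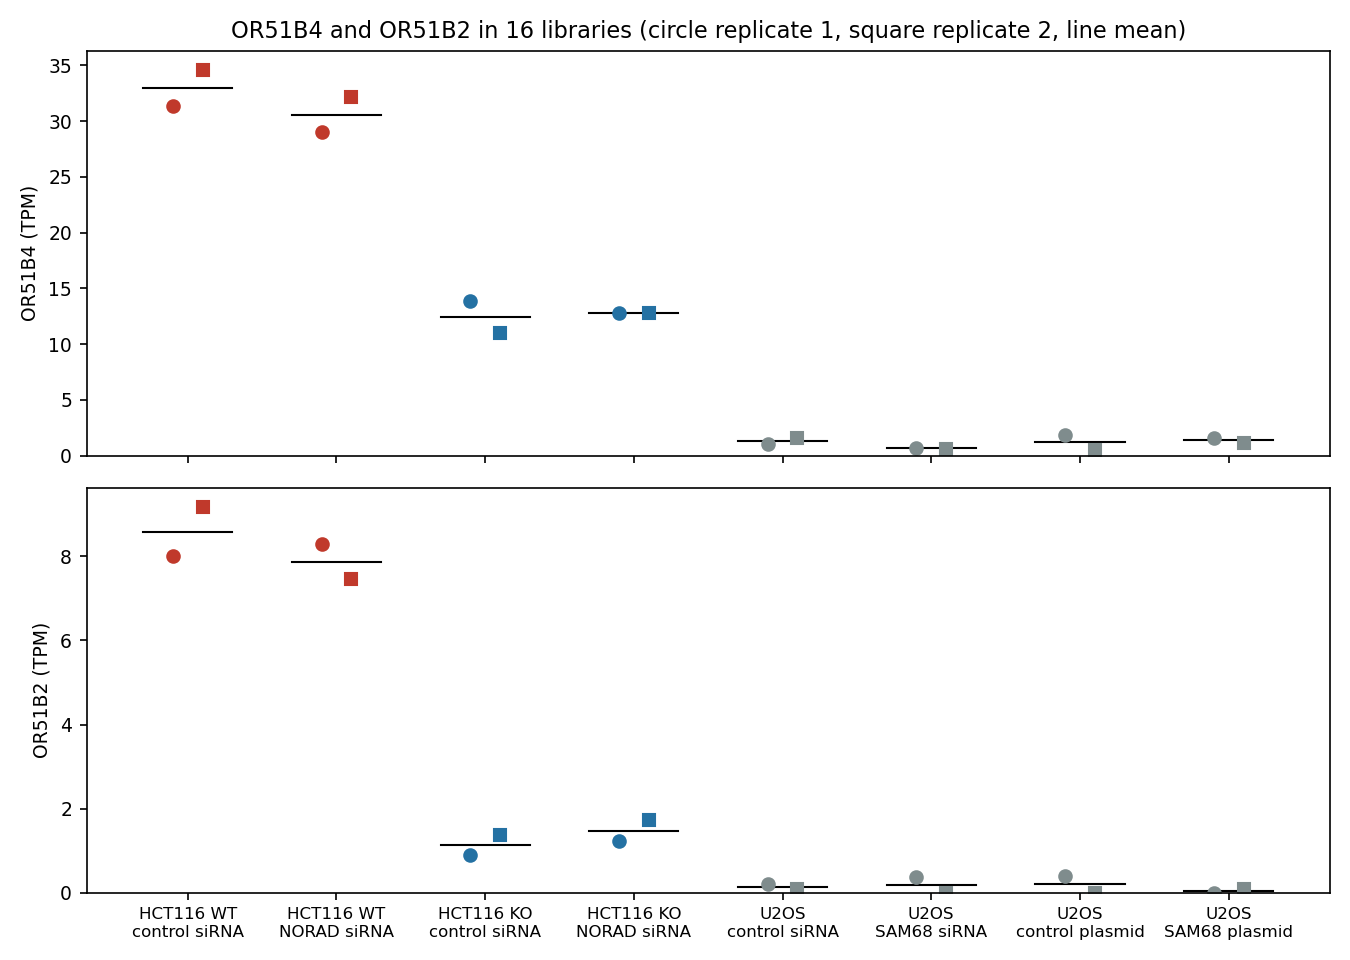
OR51B4 (upper axis) and OR51B2 (lower axis) in TPM in all 16 libraries by group; circles are replicate 1, squares replicate 2, and lines the mean of 2. Wild-type HCT116 libraries (red) lie at 29.04 to 34.6 TPM for OR51B4 and 7.45 to 9.17 TPM for OR51B2, knockout libraries (blue) at 11.02 to 13.9 and 0.91 to 1.72 TPM, and U2OS libraries (grey) near 0.

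Under Control siRNA the mean level of OR51B2 in the knockout was 13.3% of the wild-type level in CPM, 7.54-fold lower, with a log2 fold change of -2.88 ± 0.29 (SE). OR51B4 stood at 38.2%, 2.62-fold lower, with a log2 fold change of -1.40 ± 0.18. Under NORAD siRNA OR51B2 stood at 18.6% (5.36-fold lower, -2.40 ± 0.27) and OR51B4 at 42.2% (2.37-fold lower, -1.25 ± 0.18). Wild-type and knockout libraries did not overlap for either gene under either siRNA. With 2 libraries on each side, full separation has a probability of 0.333 without any difference. The share of all genes without overlap was not computed, here or for the groups compared below. These values are those for which the genes were picked. In bulk RNA, fewer cells that express a receptor and less of its RNA per cell cannot be told apart. As background, edgeR's quasi-likelihood test with Benjamini-Hochberg adjustment over 13764 tested genes called 43 genes (0.312%) between the genotypes under Control siRNA, with 20 lower (0.145%) and 23 higher (0.167%) in the knockout. Under NORAD siRNA it called 2495 genes (18.1%), 905 lower (6.58%) and 1590 higher (11.6%). The latter count rested on every library: it was 19 without knockout NORAD siRNA replicate 1, 747 without knockout replicate 2, 19 without wild-type NORAD siRNA replicate 1 and 30 without wild-type replicate 2.

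Among the 13764 fold changes under Control siRNA, OR51B2 was the 23rd lowest and OR51B4 the 94th lowest. The lowest 1% of genes began at a log2 fold change of -1.19 and the median gene was at 0.00. Under NORAD siRNA the ranks were 24 and 159, with the lowest 1% beginning at -1.29 and the median at -0.02. OR51B4 was therefore inside the lowest 1% under Control siRNA and just outside it under NORAD siRNA.

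The receptors were not reduced in proportion to each other. In wild-type HCT116, OR51B2 supplied 22.9% (exact 95% binomial interval 18.9 to 27.2%) and 23.6% (19.1 to 28.6%) of the summed counts of the pair under Control siRNA. Under NORAD siRNA it supplied 24.8% (21.03 to 28.97%) and 21.2% (17.1 to 25.8%). In the knockout the share was 7.08% (3.11 to 13.5%) and 12.7% (7.14 to 20.4%) under Control siRNA, and 10.0% (5.43 to 16.5%) and 13.6% (8.88 to 19.5%) under NORAD siRNA. All 4 knockout shares lay below all 4 wild-type shares, though some single intervals overlapped. In TPM there were 3.50 to 4.31 OR51B4 per OR51B2 in wild-type libraries and 7.42 to 15.3 in knockout libraries. Since both genes were picked in this contrast, their unequal decrease is a description as well.

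**Figure D2:**
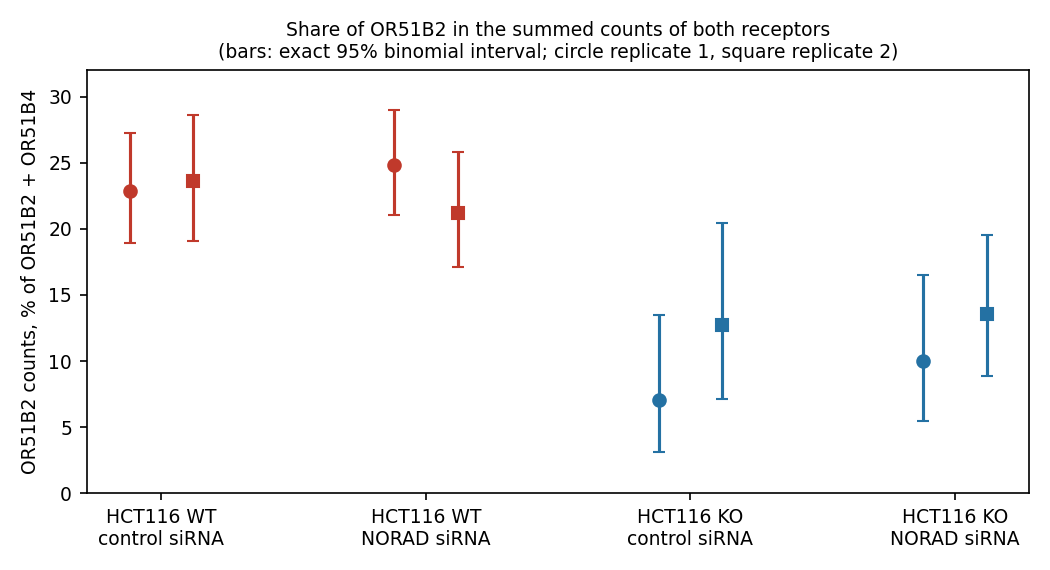
Share of OR51B2 in the summed expected counts of OR51B2 and OR51B4 (percent) in each of the 8 HCT116 libraries, with exact 95% binomial intervals for counting error. The 4 wild-type libraries (red) lie between 21.2 and 24.8% and the 4 knockout libraries (blue) between 7.08 and 13.6%.

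Genes beside the pair were examined next. Of 31 RefSeq genes around or between the receptors (15 on each side and OR51B3P between them), 19 had a row in the tables. Only 4 of these reached 10 expected counts in any HCT116 library, and the largest count among the other 15 was 5. In annotated order the expressed genes are OR51I1, OR51B5, OR51B2, OR51B4, HBE1 and HBG2. OR51B5 belongs to the same cluster as the pair, and since an expressed cluster gene lower in the knockout would have been picked with it, its difference between genotypes is given as description. Of the other 3 neighbours, which are not OR51B genes, edgeR called none between knockout and wild type under Control siRNA, where 0.312% of all tested genes were called. Under NORAD siRNA all 3 were called, 1 higher and 2 lower, where 18.1% of all tested genes were called (11.6% higher and 6.58% lower).

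OR51B5, the receptor gene next to OR51B2 and the receptor gene with the highest TPM in these cells, differed far less between genotypes than the pair. It had 184 and 212.5 TPM in wild-type HCT116 under Control siRNA and 179 and 188.43 TPM under NORAD siRNA. Knockout libraries had 182 and 177 TPM under Control siRNA and 188.65 and 206 TPM under NORAD siRNA. Within each siRNA arm the genotypes did not overlap, with the knockout lower under Control siRNA and higher under NORAD siRNA, while over all 8 libraries they did. Its log2 fold change in the knockout was -0.15 ± 0.10 (SE) under Control siRNA and 0.10 ± 0.10 under NORAD siRNA. Set against OR51B5 in TPM, OR51B4 was 16.2 to 17.1% in wild-type libraries and 6.19 to 7.65% in knockout libraries. OR51B2 was 3.95 to 4.64% of OR51B5 in wild-type and 0.501 to 0.834% in knockout libraries. Both receptors were lower in the knockout relative to OR51B5, which follows from the choice of the pair without OR51B5 and is a description only. Some annotated transcripts of OR51B5 span OR51B2, while some of HBE1 and HBG2 span both receptors, and no ratio to those 2 genes was formed. The part of reads from spanning transcripts was not tested. OR51B6, next to OR51B5, was at 0 in all 8 HCT116 libraries.

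OR51I1, another receptor gene further along on the OR51B5 side, had 27 and 33 counts in wild-type and 38 and 64 in knockout cells under Control siRNA. With the NORAD pool it had 29 and 18 counts in wild-type and 46 and 82 in knockout cells. All 4 knockout libraries were above all 4 wild-type libraries, also in CPM, which is the opposite order to OR51B2 and OR51B4. The log2 fold change was 0.79 ± 0.31 under Control siRNA (edgeR adjusted p = 0.478) and 1.42 ± 0.32 under NORAD siRNA (adjusted p = 0.0239). OR51I1 is also intronic, spanned by 8 transcripts of other genes on the same strand.

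HBE1 encodes embryonic epsilon globin. It was at 164 and 154 TPM in wild-type cells under Control siRNA and 182 and 162 TPM under NORAD siRNA, against 109 and 93.2, and 117 and 85.1 TPM, in the knockout. Wild-type and knockout libraries did not overlap, and the log2 fold change was -0.65 ± 0.22 (edgeR adjusted p = 0.386) under Control siRNA and -0.75 ± 0.22 (adjusted p = 0.0438) under NORAD siRNA. The Control siRNA value passed the edgeR test in a fit with no filter on low counts (adjusted p = 0.00227). That fit also raised the calls over all genes from 43 to 272. Most alternatives left HBE1 uncalled there, among them DESeq2 (adjusted p = 0.125) and edgeR with only the groups compared (adjusted p = 0.560).

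HBG2 encodes a fetal gamma globin, and its count is uncertain because of the near-identical copy HBG1. It had 43 and 18 counts in wild-type cells and 19 and 19 in the knockout under Control siRNA, with a log2 fold change of -0.57 ± 0.37 (edgeR adjusted p = 0.691) and overlapping levels in CPM. Under NORAD siRNA it had 62 and 46.4 counts in wild-type cells and 20 and 25.7 in the knockout, with a log2 fold change of -1.23 ± 0.34 (edgeR adjusted p = 0.0383). In the annotation 2 of 3 HBE1 transcripts and 1 of 3 HBG2 transcripts start in an exon that overlaps a distal first exon of OR51B5, as do 4 of 5 OR51B5 transcripts.

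None of the 3 neighbour calls under NORAD siRNA held when any 1 of the 4 libraries was left out. The edgeR adjusted p then ran from 0.0946 to 0.211 for OR51I1, from 0.0908 to 0.275 for HBE1 and from 0.115 to 0.236 for HBG2. The log2 fold changes kept their sign, at 1.27 to 1.59 for OR51I1, -1.15 to -0.45 for HBE1 and -1.36 to -1.12 for HBG2, so OR51I1 and HBG2 stayed close to their values in all libraries while the calls over all genes fell to 19 to 747. For none of these neighbours did the knockout effect differ between the siRNA arms by a tested margin; the difference for OR51I1 was 0.63 ± 0.45 (edgeR adjusted p = 0.663).

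**Figure D3:**
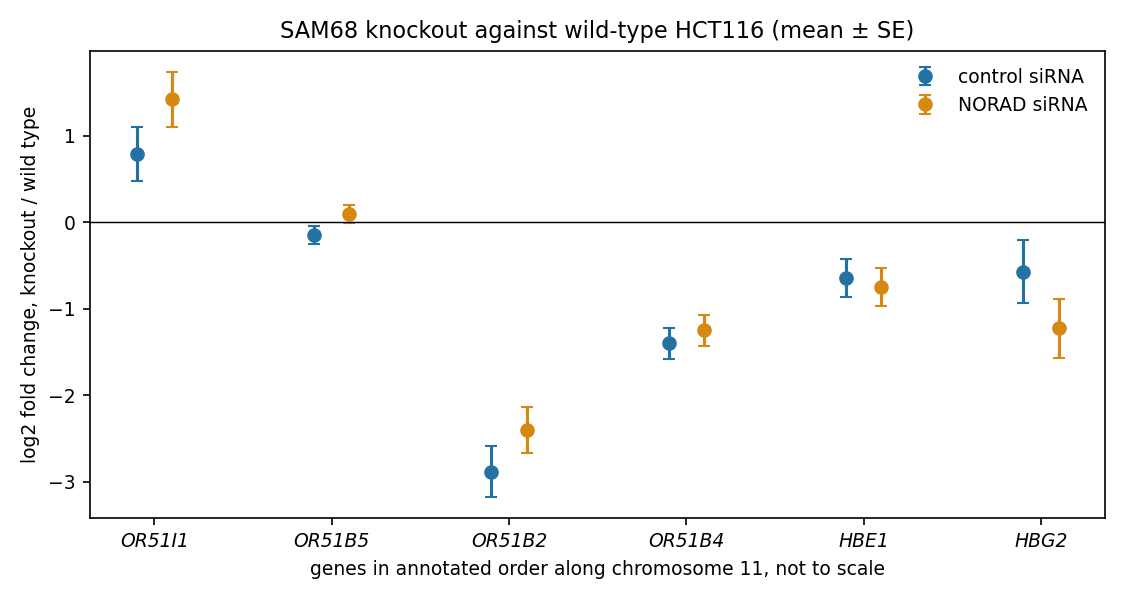
Log2 fold change, SAM68 knockout over wild-type HCT116, of the receptor pair and its 4 expressed neighbours in annotated order (not to scale), under Control siRNA (blue) and NORAD siRNA (orange); points are edgeR estimates and bars 1 SE. OR51B2 and OR51B4, picked for this difference, lie at -2.88 to -1.25, OR51B5 between -0.15 and 0.10, OR51I1 above 0 and HBE1 and HBG2 at -1.23 to -0.57.

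NORAD siRNA was not part of the choice and was tested for both receptors with edgeR's quasi-likelihood test over the 8 HCT116 libraries. In wild-type cells neither was called. OR51B2 averaged 4.49 ± 0.16 CPM under Control siRNA and 4.28 ± 0.53 CPM under NORAD siRNA (SD, n = 2), with overlapping libraries. Its log2 fold change was -0.06 ± 0.23 (95% interval -0.57 to 0.44, edgeR adjusted p = 0.999). OR51B4 averaged 14.8 ± 0.11 and 14.3 ± 0.28 CPM, a log2 fold change of -0.05 ± 0.17 (interval -0.43 to 0.32, edgeR adjusted p = 0.999). Its libraries did not overlap in CPM (14.8 and 14.9 against 14.1 and 14.5) but did in TPM. A single gene of 13764 was called in this comparison (0.00727%), and 181 had an unadjusted p below 0.05.

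In SAM68 KO cells, where OR51B2 was already low, it averaged 0.596 ± 0.13 CPM under Control siRNA and 0.799 ± 0.11 CPM under NORAD siRNA. The libraries did not overlap in CPM (0.506 and 0.686 against 0.722 and 0.875) but did in TPM. The log2 fold change was 0.42 ± 0.34 (95% interval -0.35 to 1.18, edgeR adjusted p = 0.632). OR51B4 averaged 5.67 ± 1.36 and 6.04 ± 0.65 CPM with overlapping libraries, a log2 fold change of 0.10 ± 0.19 (interval -0.33 to 0.52, edgeR adjusted p = 0.844). Again 1 gene was called (0.00727%), with 1558 at an unadjusted p below 0.05.

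The difference between the NORAD siRNA effects in knockout and wild-type cells was 0.48 ± 0.41 for OR51B2 (95% interval -0.44 to 1.40, edgeR adjusted p = 0.695). For OR51B4 it was 0.15 ± 0.25 (interval -0.41 to 0.71, edgeR adjusted p = 0.845). No gene was called by edgeR for this difference (0%), while 1048 had an unadjusted p below 0.05 and DESeq2 called 2. This difference is also that between the knockout effects in the siRNA arms, so the smaller decrease of OR51B2 under NORAD siRNA was within the error.

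U2OS allowed a test of OR51B4 alone, because OR51B2 did not pass the filter on low counts there. Under SAM68 siRNA OR51B4 was at 0.250 and 0.254 CPM, against 0.425 and 0.618 CPM under Control siRNA, without overlap. The log2 fold change of -1.05 ± 0.73 had a 95% interval of -2.69 to 0.60 (edgeR adjusted p = 1). That interval holds both 0 and the knockout values of -1.40 and -1.25 seen in HCT116. With the SAM68 plasmid OR51B4 was at 0.506 and 0.889 CPM, against 0.230 and 0.851 CPM with the Control plasmid, a log2 fold change of 0.41 ± 0.65 (interval -1.06 to 1.88, edgeR adjusted p = 1). The plasmid estimate depended on single libraries: without Control plasmid replicate 2 it was -0.33, and over the libraries left out in turn it ran up to 1.52. Each U2OS comparison called 1 of 15658 tested genes (0.00639%), with 166 and 86 at an unadjusted p below 0.05.

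**Figure D4:**
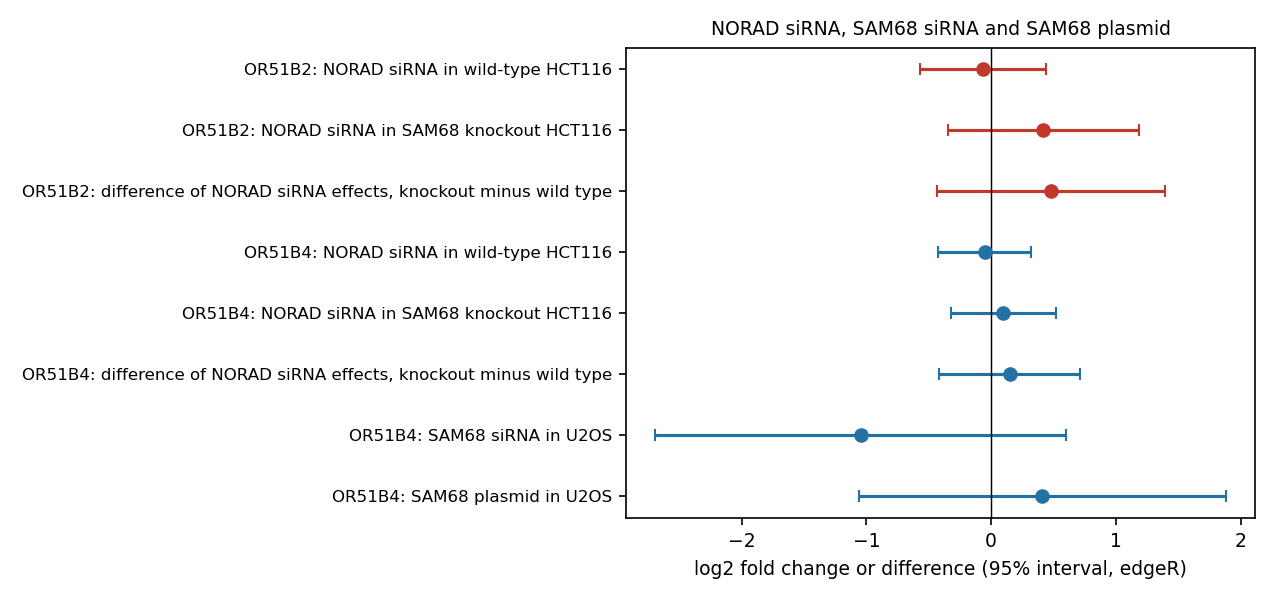
Log2 fold changes (or their difference between genotypes) of OR51B2 (red) and OR51B4 (blue) in the comparisons that did not choose the genes; points are edgeR estimates and bars 95% intervals. Every interval crosses 0, and that of OR51B4 under SAM68 siRNA in U2OS is the widest, at -2.69 to 0.60.

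Between the cell lines under Control siRNA, mean OR51B4 was 33.0 TPM in wild-type HCT116 and 1.315 TPM in U2OS, a ratio of 25.1. The ratio was 13.6 for OR51B5 (198 against 14.6 TPM) and 18.2 for HBE1 (159 against 8.74 TPM). OR51B5 and HBE1, the nearest expressed genes on each side of the pair, were thus also higher in HCT116 than in U2OS. Neighbours were named only with at least 10 expected counts in an HCT116 library, so this order follows in part from that choice. Among those below it, UBQLNL had at most 5 counts in HCT116 and 21 in U2OS, and OR51Q1 0 and 8. HBG1 had the other order, at most 4.27 and 0. The ratios between the lines were not tested.

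Few other olfactory receptors had RNA in HCT116 cells. Of 385 olfactory receptor rows, 360 of them protein coding, 354 (337 protein coding) were at 0 in all 8 HCT116 libraries, and 256 in all 8 U2OS libraries. Only 9 receptor rows, 6 protein coding, passed the filter in HCT116, against 14 in U2OS. OR51B5 and OR51B4 were the most abundant of the 9 in HCT116 by TPM. The pair and their 2 receptor neighbours made up 4 of the 9. The rest were OR2A4 (0.61 to 2.12 TPM), OR7D2 (0.30 to 1.27 TPM) and the pseudogenes OR7E37P, OR7E14P and OR7E156P.

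Of the 7 tested receptor rows other than the pair (OR51B5 included), none was called between knockout and wild type under Control siRNA, where 0.312% of all tested genes were. OR7D2, the one with the largest estimated decrease, had a log2 fold change of -1.52 ± 0.41 (edgeR adjusted p = 0.237) there and -0.48 ± 0.34 (adjusted p = 0.327) under NORAD siRNA. Under NORAD siRNA 2 of 7 were called higher, OR51I1 and OR7E37P (1.91 ± 0.53, edgeR adjusted p = 0.0383), and none lower, where 11.6% of all tested genes were called higher and 6.58% lower. That OR51B5 was not called lower in either arm is a description, since it would otherwise have been picked with the pair. The NORAD siRNA comparisons called none of the 7, where 0.00727% of all tested genes were called in each genotype. OR7E37P was not called when any 1 of the 4 libraries was left out (edgeR adjusted p 0.0673 to 0.257).

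**Figure D5:**
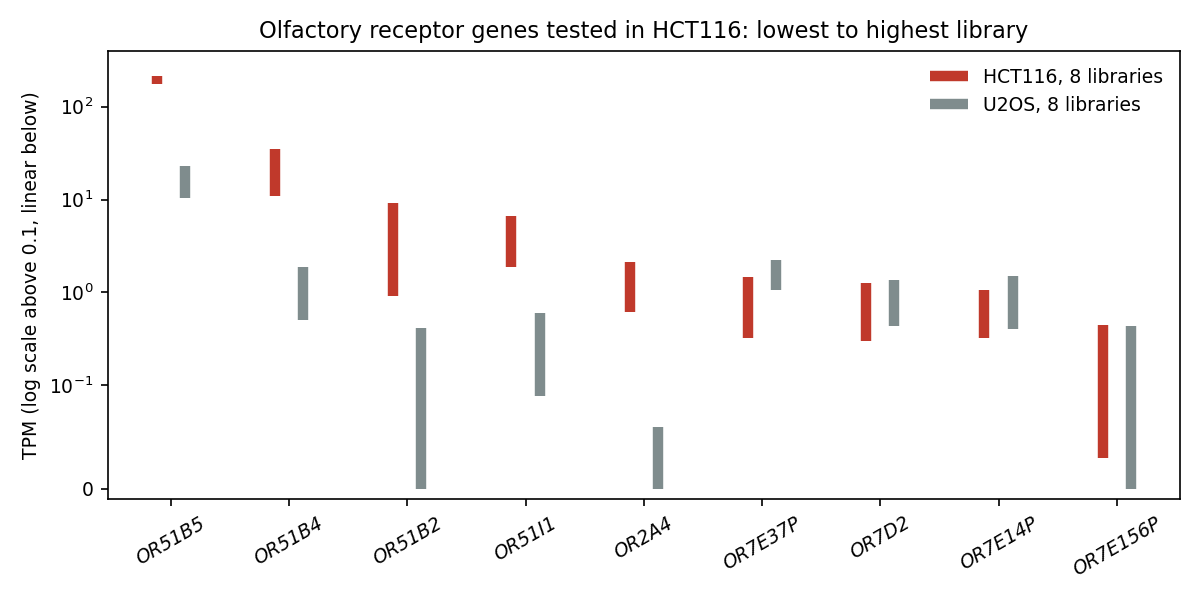
Range in TPM, lowest to highest library, of the 9 olfactory receptor rows tested in HCT116, in the 8 HCT116 libraries (red) and the 8 U2OS libraries (grey), on a log scale above 0.1 and a linear one below. OR51B5, at 177 to 212.5 TPM in HCT116, is the highest, followed by OR51B4 (11.02 to 34.6) and OR51B2 (0.91 to 9.17); the wide HCT116 ranges of the latter span both genotypes.

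Signalling partners of olfactory receptors were present only in part. Of 19 genes of olfactory signalling and receptor trafficking, 9 were tested in HCT116. GNAL, the olfactory G protein subunit, was at 3.15 to 5.47 TPM, and ADCY3, the cyclase, at 18.1 to 31.6 TPM. GNB1, a beta subunit used by many receptors, averaged 232 TPM. CNGA2, the channel subunit, the receptor transporters RTP1 and RTP2 and the cilia protein STOML3 were at 0 in every HCT116 library, and the neuron marker OMP was at 0 to 0.63 TPM. Other genes of the same list were present in every HCT116 library, among them REEP1 (5.16 to 6.79 TPM) and RIC8B (6.14 to 8.90 TPM). Between knockout and wild type none of the 9 was called under Control siRNA, where 0.312% of all tested genes were (median log2 fold change -0.01, against 0.00 for all genes). Under NORAD siRNA ADCY3 was lower (-0.39 ± 0.11, edgeR adjusted p = 0.0432) and GRK3, a kinase that desensitises receptors, higher (0.42 ± 0.13, adjusted p = 0.0488), where 18.1% of all genes were called.

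Regulators of receptor gene choice in neurons were followed next. Of 13 listed genes 11 had a row and 8 were tested. Under Control siRNA none of the 8 was called (0.312% of all genes), and under NORAD siRNA 3 were (18.1% of all genes). LHX2, a homeodomain factor that acts with LDB1 at receptor enhancers, was at 2.25 to 5.04 TPM in HCT116. Under NORAD siRNA, LBR, a nuclear envelope protein that tethers heterochromatin, was higher in the knockout (0.38 ± 0.10, edgeR adjusted p = 0.0303). EHMT2, a histone H3 lysine methyltransferase, was lower (-0.43 ± 0.12, adjusted p = 0.0387), as was EBF4 (-1.10 ± 0.29, adjusted p = 0.0340). Of 12 regulators of the beta-globin locus, 7 were tested and none was called in either arm, where 0.312% and 18.1% of all genes were. Members of this list were present only in part. The erythroid factors GATA1 and KLF1 were at 0 in all HCT116 libraries, and TAL1 and BCL11A reached at most 0.03 and 0.17 TPM. By contrast, GATA2 was at 7.98 to 10.8 TPM, MYB at 3.58 to 4.73 TPM and LMO2 at 2.07 to 3.74 TPM.

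Markers of other cell types that express these gene families were low. The 9 olfactory neuron markers summed to 22.1 to 36.5 TPM in HCT116, nearly all of it ADCY3 and GNAL, with 31.6 to 36.5 TPM in wild-type and 22.1 to 32.03 TPM in knockout libraries. The 7 erythroid markers summed to 2.20 to 3.35 TPM in wild-type and 1.07 to 2.16 TPM in knockout libraries, with ALAS2, GATA1 and KLF1 among those at 0. Most of the sum came from the globin genes HBA2 and HBA1, with means of 1.54 and 0.63 TPM in HCT116. HBA2 had a log2 fold change in the knockout of -1.57 ± 0.92 under Control siRNA and -0.96 ± 0.66 under NORAD siRNA, and was not called. The 10 colon epithelial markers summed to 3359 to 3708 TPM in wild-type and 3453 to 4187 TPM in knockout libraries, and of the 6 tested, EPCAM alone was called in the knockout under NORAD siRNA, as higher (0.47 ± 0.10, edgeR adjusted p = 0.0212). Of 5 tested mesenchymal and bone genes, VIM (-1.48 ± 0.26, adjusted p = 0.0145) and COL1A1 (-0.74 ± 0.19, adjusted p = 0.0291) were called lower in that arm, where 6.58% of all genes were called lower and 11.6% higher. The mesenchymal sum was 11.1 to 13.8 TPM in wild-type and 7.99 to 9.06 TPM in knockout libraries. The part of these markers in the receptor levels was not tested. No member of any of these lists was called by edgeR for NORAD siRNA in either genotype, where 0.00727% of all tested genes were called in each. Of the 8 list genes called between the genotypes under NORAD siRNA, 7 were not called when any 1 of the 4 libraries was left out (ADCY3, GRK3, EBF4, EHMT2, LBR, VIM and COL1A1; edgeR adjusted p from 0.0577 to 0.310), and EPCAM was called in 1 of these 4 fits, that without knockout NORAD siRNA replicate 2.

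The genes with the most similar profiles were found by the root mean square difference of centred log2 CPM over the 8 HCT116 libraries, a measure that the difference between genotypes dominates. For OR51B2 they were KDM4D, a histone demethylase gene (0.143), BTBD1 (0.176), KHDRBS1 itself (0.287), CD33, a sialic acid-binding receptor (0.331), and ACSL5, a fatty acid-activating enzyme (0.339). KDM4D was at 3.805 to 4.74 CPM in wild-type and 0.555 to 1.06 CPM in knockout libraries, close to the OR51B2 levels of 3.91 to 4.66 and 0.506 to 0.875 CPM. For OR51B4 they were PMFBP1 (0.123), the laminin gene LAMB1 (0.124), XXYLT1, a xylosyltransferase gene (0.131), ACSL5 (0.158) and APOLD1 (0.162). XXYLT1 was at 16.5 to 17.7 CPM in wild-type and 6.52 to 7.44 CPM in knockout libraries, where OR51B4 was at 14.1 to 14.9 and 4.71 to 6.63 CPM. The receptors differed from each other by 0.445, which made OR51B4 the 16th nearest gene to OR51B2 of 13763 and OR51B2 the 431st nearest to OR51B4. The median over all genes was 1.04 from OR51B2 and 0.658 from OR51B4. Both receptors were picked for a lower level in the knockout, so these distances follow from the choice and are a description only.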

How the data were processed

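Poly(A) RNA had been made into libraries with a strand-specific kit, per the labels' protocols. The submitters' processing notes name STAR, RSEM and hg19. Versions, and the strand setting of the counting, are not given in the sources used. The deposited expected counts, which are estimated read counts per RefSeq gene from RSEM, and the TPM values are the authors', with 1 file per library per the file headers. The effective length in bases, deposited by the authors in the same files, entered as an offset in 1 alternative. Counts were rounded for the tests, and CPM was computed from them with TMM scaling.

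Symbols were matched by NCBI gene number for 25321 of 27434 rows; 627 rows join several gene numbers. Gene order and overlap came from GENCODE 29 and a RefSeq table of assembly GRCh38.p14, another build than the files use, so no coordinates are printed.

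Each cell line was fitted apart over its 8 libraries (4 groups sharing the spread) with edgeR 4.0.16 (filterByExpr, TMM, glmQLFit, glmQLFTest; limma 3.58.1, R 4.3.3), and p-values were adjusted by Benjamini-Hochberg over all tested genes, 13764 in HCT116 and 15658 in U2OS, with calls below 0.05. The biological coefficient of variation was 11.3% in HCT116 and 20.0% in U2OS. With 2 libraries on each side, the smallest two-sided p of an exact permutation test is 0.333. Replicates of a group differed by more than sampling noise (chi-square per gene 7.83 to 60.1) and were kept as separate samples.

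The members, the lists and the rules were chosen with earlier results of these data known. Named genes were the receptor pair, the 15 RefSeq genes on each side with at least 10 expected counts in an HCT116 library, the other receptor rows that passed the filter in HCT116, called members of each list, and the 5 nearest profiles per receptor, on log2 of CPM plus 0.5. Further list members, abundant or near 0, and some other receptor rows and neighbours were named as examples, and not every abundant list member was named. Alternatives were DESeq2 1.42.0, RLE size factors, no filter on low counts, an effective length offset, a replicate block, only the groups compared, and each library left out in turn. Those for U2OS, for counts of all called genes and for called list genes were chosen after seeing the data. The value of 1 listed marker gene is not reported here.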

Additional observations from a re-analysis of the deposited data

How the results depend on the processing

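The receptors' differences between knockout and wild type kept their sign in all alternatives. With each library left out in turn, OR51B2 ran from -3.13 to -2.72 and OR51B4 from -1.68 to -1.15 under Control siRNA, and OR51B2 from -2.57 to -2.26 and OR51B4 from -1.38 to -1.15 under NORAD siRNA. No test of NORAD siRNA on either receptor passed the threshold in any alternative, and several estimates near 0 changed sign with 1 library. OR51B2 in wild-type cells ran from -0.20 to 0.053, above 0 without wild-type NORAD siRNA replicate 2. OR51B4 in knockout cells ran from -0.16 (without knockout control siRNA replicate 2) through -0.02 (without knockout NORAD siRNA replicate 1) to 0.35, and its difference between genotypes from -0.11 (without knockout control siRNA replicate 2) to 0.41. In U2OS, OR51B4 ran from -1.22 to -0.70 with SAM68 siRNA and from -0.33 to 1.52 with the SAM68 plasmid, where it was -0.00016 without SAM68 plasmid replicate 1. The cause of these shifts was not tested, and each of these fits also had fewer samples.

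Among the 4 neighbours, calls under Control siRNA went from 0 to 1 (HBE1) with no filter on low counts and to 1 with the replicate block, and calls under NORAD siRNA went from 3 to 0 with any 1 library left out. DESeq2 gave no adjusted p for OR51B2, OR51I1 and HBG2 in that arm, and its values for them are left out. OR51B5 counts among the 4 neighbours as a description only.

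The replicate numbers are not stated to mark a shared batch. Differences between replicates correlated across genes at 0.265 and 0.179 between the siRNAs of wild-type and knockout cells, and at 0.452 and 0.104 between the genotypes under control and NORAD siRNA. With the replicate block, HBE1 under Control siRNA had an edgeR adjusted p of 0.0119, no receptor call changed, and the calls over all genes went from 43 to 254 and from 2495 to 5539 between the genotypes, from 1 to 13 for NORAD siRNA in each genotype and from 0 to 5 for its difference.

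Calls over all genes also moved with other settings. Between the genotypes under Control siRNA they were 114 by DESeq2, 272 with no filter, 7 with only the groups compared and 20 to 41 with a library left out. Under NORAD siRNA they were 3965 with no filter, 4417 with only the groups compared and 19 to 747 with a library left out. For NORAD siRNA in wild-type cells they were 5 by DESeq2, 33 with no filter, 2 with only the groups compared and 1 to 2 with a library left out, and in knockout cells 9, 61, 7 and 0 to 4. For its difference they were 2 by DESeq2, 30 with no filter and 0 to 1 with a library left out. Depth limits OR51B2 in the knockout and in U2OS, where it had at most 24 and 3 counts.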
